A study of Danio rerio with 7 samples.

Results

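The cells described here are the part of the tumor microenvironment (TME) of zebrafish melanoma that is left once cells high in a keratinocyte or a macrophage gene are set aside. They are the cells that the authors annotated as TME, with at least 2000 raw UMIs (unique molecules counted per cell), fewer than 20 counts of krt5, a keratin of basal keratinocytes, and fewer than 5 counts of c1qb, a complement gene of macrophages. The rule kept 325 of 3968 cells, or 325 of the 965 TME cells with at least 2000 raw UMIs. It left out 253 cells as krt5-high and 387 as c1qb-high, so the members were selected on measured counts of these 2 genes and on depth. Cells with keratinocyte or macrophage markers but counts under these limits were kept, among them clusters of 25 and 48 cells described below.

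The tumors were made by TEAZ, electroporation of plasmids into the skin of adult fish, in casper;mitfa:BRAFV600E;p53-/- animals that received MinicoopR-tdT, mitfa:Cas9 and guides against ptena and ptenb. The mitfa promoter, active in melanocytes and their precursors, drives BRAF and Cas9, whereas the loss of p53 is carried by every cell of the fish, the stroma included. Tumors and adjacent tissue of male and female fish were pooled into 1 droplet library from a sort that discarded debris and doublets. The comparison groups are the 5 melanoma states of the annotation, with 2502 cells of at least 2000 raw UMIs (833 stressed, 549 inflammatory, 486 melanocytic, 310 invasive and 324 proliferative). With 1 library there is no replicate, so no difference below has a test, and intervals are exact 95% Clopper-Pearson intervals that cover counting error only. The rule and the annotation use the same expression values as the comparisons, so these are descriptions.

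Fibroblasts of the skin secrete collagens and the proteoglycans that bind them, and in tumors they also release chemokines. Pericytes and smooth muscle cells wrap vessels and carry the receptors PDGFRB and NOTCH3, while endothelial cells line blood and lymphatic vessels. T and NK cells, neutrophils and erythroid cells arrive through those vessels.

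The cells held a median of 4325 raw UMIs (2029 to 47609), against 10514.5 in the melanoma cells, 9683 in the krt5-high cells and 8839 in the c1qb-high cells. Values are counts that the authors corrected to a common depth, and the correction adds counts to shallow cells: 177 of the 325 cells had more genes above 0 after it than before. Shares of genes of the melanoma lineage moved with depth. The neural crest gene crestin was above 0 in 45.2% of the 325 cells and its regulator sox10 in 30.2%, spread over all 9 clusters described below, but in 16.7% and 11.6% of the 138 cells with at least 5000 raw UMIs and in 23.8% each of the 42 with at least 10000. Mean levels were 0.708 corrected counts of crestin per cell against 6.37 in melanoma, and 0.388 of sox10 against 3.23. In the 138 deeper cells the crestin mean was 0.580 and in the 42 deepest 1.31, and the part of the correction in these values was not tested. Of 11 measured melanoma and melanophore genes past the minimum of 50 corrected counts, 0 had a higher share of all counts than in melanoma and 11 had a share less than 0.5 times it (log2 ratio under -1). The 10 Schwann cell genes past the minimum likewise had 0 over 1, with a median log2 ratio of -2.00. Over all 12515 genes, 13% were over 1 and 38.7% under -1, with a median of -0.70. The human BRAF transgene was above 0 in 6 of the 325 cells (1.85%, 0.680 to 3.97%) and in 32.8% of melanoma cells. The Cas9-mCherry transcript was in 32.0% against 69.9%, at means of 0.486 and 5.06 corrected counts per cell. It was in 9.88% of the krt5-high and 14.2% of the c1qb-high cells, which were deeper. The part of the correction in the Cas9-mCherry shares was not tested.

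Near the limits of the rule, 16 of the 325 cells had 10 to 19 counts of krt5 and 12 TME cells had 20 to 29. Likewise, 18 of the 325 had 3 or 4 counts of c1qb and 23 TME cells had 5 or 6. In depth, 42 of the 325 had fewer than 2500 raw UMIs, and 89 TME cells below the limit of 2000 had 1500 or more.

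Fibroblast genes marked most of these cells. The collagen gene col1a1a, which encodes a chain of type I collagen, was above 0 in 205 of 325 cells (63.1%, 57.6 to 68.3%), against 1.60% of melanoma cells, 9.88% of krt5-high cells and 5.68% of c1qb-high cells. At 3 or more corrected counts the share was 59.4% against 0.200% in melanoma, so nearly all of these cells carried it well above 0. The other chain, col1a2, was found in 65.8% and the chemokine gene cxcl12a in 64.6%, against 2.52% and 2.84% of melanoma cells. The type V collagen gene col5a1 was found in the largest share of the list, 66.2%, but also in 32.0% of melanoma cells.

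Vessel-associated genes marked a smaller share. The pericyte receptor pdgfrb was above 0 in 36.9% (31.7 to 42.4%) and notch3 in 29.8%, against 1.92% and 3.32% of melanoma cells, although notch3 was also in 37.9% of the krt5-high cells. The light chain gene myl9a followed at 25.2%. Most cells with pdgfrb or notch3 lay outside the pericyte-like cluster. Pdgfrb was in 29 cells of that cluster, 52 of the rbp7b and 16 of the cxcl18b cluster, and notch3 in 27, 30 and 10. Among endothelial genes, the surface gene ecscr was found in 9.85% (6.83 to 13.6%), the transcription factor gene fli1a in 9.54% and egfl7, a secreted factor of endothelium, in 9.23%, against 0.120%, 0.0400% and 0.879% of melanoma cells. The receptor gene tie1 was also in 9.23%, and in 16.3% of the c1qb-high cells.

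Lymphocyte genes were rare. The T cell kinase gene lck was above 0 in 4 cells (1.23%, 0.336 to 3.12%) and in 0 of 2502 melanoma cells, where the upper limit on the share of cells with a corrected count is 0.147%. Of the 3 T cell markers found in the largest share of cells, cd28 was in 24 cells (7.38%), sla2, an adaptor of T cell receptor signaling, in 13 and tnfrsf9b in 8 (2.46%). The cd28 cells were not confined to a lymphocyte cluster, since 6 lay in the rbp7b cluster, 8 in the pericyte-like and 6 in the cxcl18b cluster. For NK and cytotoxic genes, fcer1gl was in 12.9% of cells, but 37 of its 42 cells lay in the slc7a7 cluster and 98.4% of the c1qb-high cells held it. The perforin gene prf1.5 was in 3.08% with 0 cells at 3 or more counts, the chemokine gene ccl36.1 in 2.15%, and the NK-lysin gene nkl.2 in 6 cells (1.85%, 0.680 to 3.97%), 5 of them in the rbp7b cluster, against 10 of 2502 melanoma cells. Neither nkl.4 nor cd79a, a subunit of the B cell receptor, was above 0 in any of the 325 cells, where the upper limit on the share of cells with a corrected count is 1.13%.

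No cluster was named from neutrophil or erythroid markers. The neutrophil gene npsn was above 0 in 2 cells (0.615%, 0.0746 to 2.21%) and lect2l in 5 (1.54%), while the genes of the list found most often are shared with other cells: srgn was in 76.9% of the cells and 92.8% of the c1qb-high cells, pnp5a in 14.2% and in 33.2% of melanoma cells, and ncf1, of the phagocyte oxidase, in 10.5% and in 61.0% of the c1qb-high cells. In the slc7a7 cluster 3 of the 4 neutrophil markers past the minimum had a log2 ratio over 1 to melanoma. The median of the 4 was 8.37, and 15% of all genes were over 1. Every other cluster also had 3 of the 4 over 1. The 0.5 added to each sum can put a gene with 0 counts in a cluster over 1, so this count cannot tell the clusters apart. In the slc7a7 cluster all 3 were also in at least 25% of the cells, against 1 in each other cluster. One of these 3, the chemokine receptor gene cxcr1, was in 14 of the 48 cells of the slc7a7 cluster. It was in 0 of the other cells and 7.75% of the c1qb-high cells. The markers mpx and lyz were not analysed here. The globin gene hbaa1 was in 16 cells (4.92%, 2.84 to 7.87%), against 2.96% of melanoma cells, 3.95% of krt5-high and 5.94% of c1qb-high cells, and hbba1 and hbba1.1 were in 2.46% each. No cell held 3 or more counts of hbaa1, and the intervals of the 325 cells, the krt5-high and the c1qb-high cells overlapped, so the share is not read as erythroid cells.

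**Figure D1:**
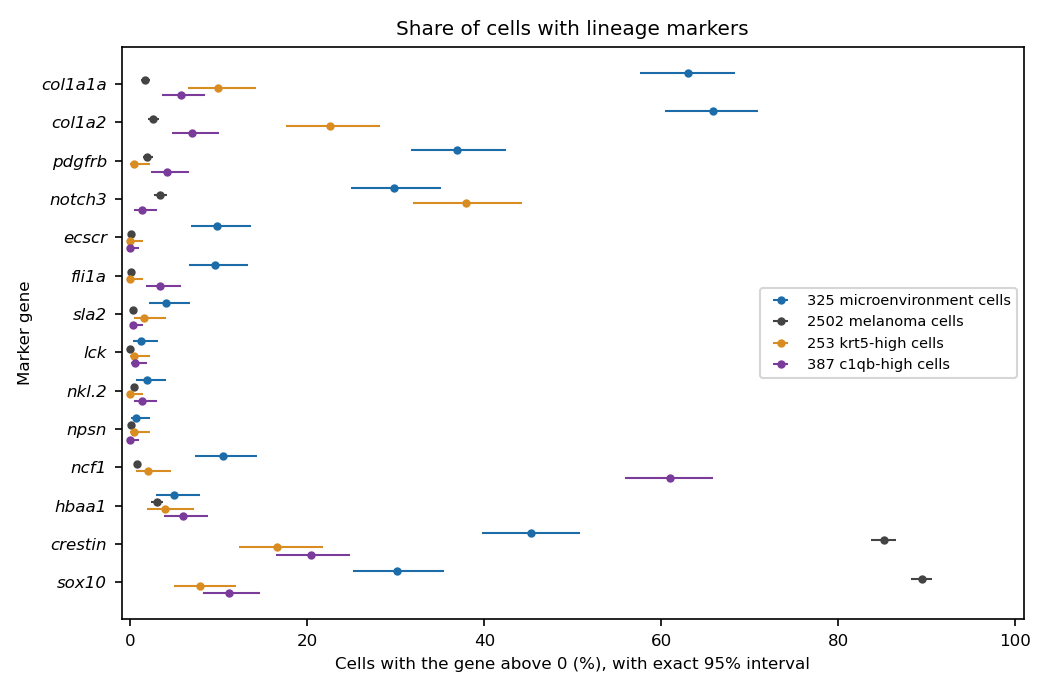
Share of cells with 14 marker genes above 0 (x axis, percent; bars are exact 95% intervals) in the 325 microenvironment cells, the melanoma cells, the krt5-high and the c1qb-high TME cells. Stromal and endothelial genes stand apart in the 325 cells (col1a1a 63.1%, ecscr 9.85%), whereas hbaa1 lies between 2.96% and 5.94% in all 4 groups.

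Clustering on the 2000 most variable genes gave 9 clusters of 13 to 91 cells. A cluster was named as a cell type only where at least 3 markers of 1 list were among its 50 leading genes. Markers with nearly all their counts in a single cell were left out, and its 10 leading genes could hold no more markers of another list. The cldnh cluster is an exception, given below. Each cluster without a cell type name goes by one of its leading genes, chosen after its values were seen. Leading genes rank a cluster against the other members, most of which held fibroblast genes, so shared fibroblast markers had little room to lead. The fibroblast-like name therefore does not give the share of fibroblasts. Against melanoma, 18 of 19 fibroblast markers had a log2 ratio over 1 in the rbp7b, pericyte-like, clu, cxcl18b and sla2 clusters. Over all genes the share there was 11.2 to 20.3%. The 0.5 added to each sum weighs more in clusters of fewer cells. Lyve1a, at 0 counts in the rbp7b and the sla2 cluster, had log2 ratios of 2.57 and 5.34 there. Counts of genes over 1 by cluster therefore depend in part on its number of cells. Fibroblast markers over 1 and also in at least 25% of the cells numbered 17 in the rbp7b and 14 in the sla2 cluster. They numbered 16 each in the pericyte-like, clu and cxcl18b clusters. Of the 9 clusters, 5 held col1a1a in more than 80% of their cells: the rbp7b, pericyte-like, clu, fibroblast-like and cxcl18b clusters. Together they made up 204 of 325 cells (62.8%, 57.3 to 68.0%), with col1a1a above 0 in 194, and 11 of the other 121 cells held it too. The other 4 were the slc7a7 cluster (48 cells), the endothelial-like (35), the cldnh (25) and the sla2 cluster (13).

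**Figure D2:**
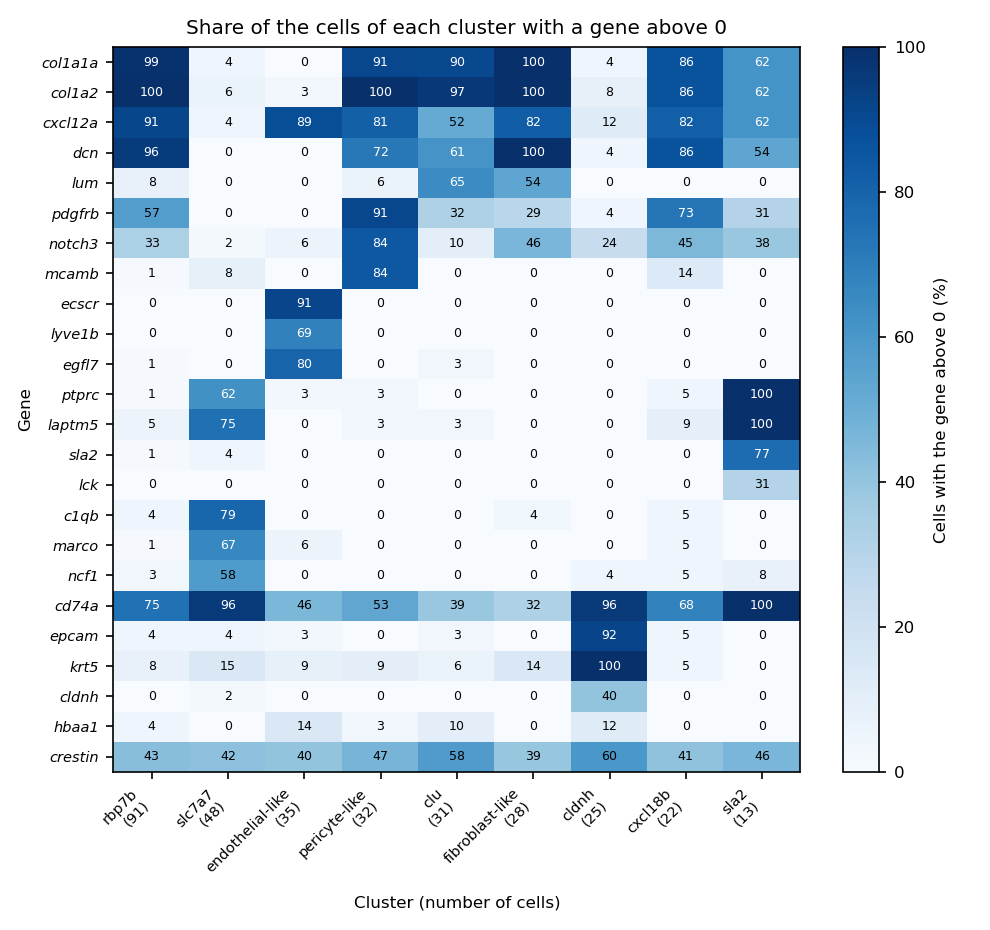
Share of the cells of each cluster (columns, with the number of cells) that hold a gene above 0 (rows), in percent. The collagen genes fill 5 columns, and col1a1a and col1a2 each reach 61.5% in the sla2 column. Ecscr appears in the endothelial-like column alone (91.4%), and crestin is above 0 in at least 39.3% of the cells in every column.

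The rbp7b cluster held 91 cells (28.0%, 23.2 to 33.2%), with col1a1a at a median of 27 corrected counts (0 to 146) and col1a2 at 36 (3 to 234). Of the 19 measured fibroblast markers past the minimum, 18 had a log2 ratio over 1 to the melanoma states pooled, when 11.2% of all 12515 genes did. By ratio to the other cells its 5 leading genes were tpma, ckma, actc1b, nme2b.2 and ckmb, of which tpma, ckma, actc1b and ckmb belong to skeletal muscle. These rest on 1 cell: of 1732 corrected counts of the skeletal muscle list over all 325 cells, 1641 were in that cell and the next held 5. It also held 7 counts of col1a1a. Among genes found in at least 25% of the cluster's cells, a ranking added after the values were seen, the leading ones were rbp7b, a retinoid-binding protein (34.1% of the cells against 4.27% of the others), mamdc2b (36.3% against 2.99%), crabp1b and, further down, the leptin gene lepb (31.9% against 7.69%). The fatty acid-binding protein gene fabp11a was in 71.4% of the cells, and lpl, the lipoprotein lipase, in 27 of the 43 cells that held it at all. Fabp11a was not particular to this cluster, being also in 71.4% of the endothelial-like and 68.2% of the cxcl18b cluster.

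The fibroblast-like cluster held 28 cells (8.62%), and col1a1a was above 0 in all 28, at 5 to 102 counts with a median of 27. All 19 fibroblast markers past the minimum had a log2 ratio over 1 to melanoma, when 13.8% of all genes did, and 18 of them were in at least 25% of its cells. Its 5 leading genes were notum2, si:ch211-287a12.9, omd, lum and fgl1. The notum2 counts came from 2 cells, one with 96.1% of them. Lum, a keratan sulfate proteoglycan of the collagen matrix, was in 53.6% of the cells at a mean of 9.04 counts against 0.455 in the others. Of its counts here 28.1% came from 1 cell, and its median was 1. Lum was not particular to this cluster: in the clu cluster it was in 64.5% of the cells, at a median of 3 and a mean of 4 counts. Omd, of the same family, was in 6 of the 28 cells. The retinol carrier gene rbp4 had its highest median here, 191.5 counts (25 to 471), against 116 in the rbp7b cluster and 12 in the cxcl18b cluster.

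The clu cluster held 31 cells (9.54%). It had 18 of the 19 fibroblast markers over 1, when 14.5% of all genes were. Its 5 leading genes were col10a1b, paplnb, col10a1a, bgna and col5a2b, and 65.5 to 100% of the counts of each came from 1 cell. Type X collagen, which col10a1a and col10a1b encode, is a collagen of hypertrophic cartilage and of bone-forming cells in fish. Genes found in at least 25% of the cells were the transcription factor genes twist3 (51.6% against 0.340% of the others) and osr2 (54.8% against 2.38%), cldn7a, and clu, the secreted chaperone clusterin, at a median of 37 counts (0 to 408) against 4 in the rbp7b and 2 in the fibroblast-like cluster. The ammonium transporter gene rhag, on the erythroid list, was in 7 of the 8 cells that held it here, with hbaa1 in 3 of the 31 cells.

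The cxcl18b cluster held 22 cells (6.77%), and 18 of the 19 fibroblast markers were over 1. Its 5 leading genes were si:ch211-183d5.2, cst14b.2, zgc:194101, si:ch211-217k17.11 and cd82a, of which cst14b.2 was in 1 cell and zgc:194101 in 3. Chemokine genes with more cells behind them were chosen after their values were seen: cxcl18b was above 0 in 90.9% (median 18 counts, up to 256) against 54.8% of the others, ccl19a.1 in 95.5% (median 14) against 31.7%, and the neutrophil chemoattractant gene cxcl8b.1 in 11 of the 22 cells against 17.8% of the others. Cxcl18b was not particular to this cluster, being also in 89.0% of the cells of the rbp7b (median 13) and 87.5% of the pericyte-like cluster (median 7.5). The interferon-induced isg15 was at a mean of 15.3 counts against 3.41 in the others. Of the 12 measured interferon response genes past the minimum, 7 had a log2 ratio over 1 to melanoma here, when 17.9% of all 12515 genes did. The cldnh cluster also had 7 and the slc7a7 cluster 5, against 0 of 12 in the rbp7b and the clu clusters. Of those over 1, 3 were also in at least 25% of the cells here, 2 in the cldnh and 3 in the slc7a7 cluster.

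The pericyte-like cluster held 32 cells (9.85%). In it 6 of the 7 pericyte and smooth muscle markers past the minimum had a log2 ratio over 1 to melanoma, when 17.6% of all genes did, and so had 18 of the 19 fibroblast markers. Of the same 7, 5 were over 1 in the rbp7b, fibroblast-like, cxcl18b and sla2 clusters and 4 in the clu and cldnh clusters. All 6 here were also in at least 25% of the cells, against 4 in the cxcl18b cluster and fewer in every other. The receptor gene pdgfrb was at a median of 5 counts (0 to 26) and notch3 at 5.5 (0 to 20), against a median of 1 and 0 in the rbp7b cluster. Its leading genes were her4.2 and her4.2.1, which belong to a family of Notch targets, pcdh18a, rasl12 and mcamb, an adhesion molecule of vessel walls. The her4.2 counts were in 8 cells with 63.0% of them in 1, while rasl12 was in 30 of the 32 cells at a mean of 12.3 counts against 0.150 in the others, and mcamb in 27 at 3.97 against 0.0478. Melanoma cells also held mcamb, in 45.8%.

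The endothelial-like cluster held 35 cells (10.8%, 7.62 to 14.7%) and had col1a1a at 0 in each. Its 5 leading genes, lyve1a, ecscr, lyve1b, gpr182 and gig2j, were at 0 in every other of the 325 cells. Of the 12 endothelial markers past the minimum, 11 had a log2 ratio over 1 to melanoma, when 15% of all genes did. Of these, 10 were also in at least 25% of its cells, against 0 in every other cluster. The hyaluronan receptor genes lyve1a and lyve1b, known from lymphatic and some venous endothelium, were in 21 and 24 cells, and 32 of the 35 held at least 1 of the pair. Of those 32 cells, 19 held flt4, the receptor for VEGFC, 14 held prox1a, the lymphatic transcription factor gene, and 22 held the scavenger receptor gene stab2. The blood vessel receptor gene kdrl was in 2 of the 35 cells, plvapb, of fenestrated endothelium, in 7, and cdh5 in 3. Other endothelial genes were found about as often as flt4 and prox1a: of the same 32 cells, 16 held tie1, 16 cldn5b, 15 tek and 14 podxl, and 9 held kdr. The split between lymphatic and blood endothelium was not tested. The chemokine gene cxcl12a was in 31 of the 35 cells, at a median of 14 counts (0 to 50), and fabp11a in 25.

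**Figure D3:**
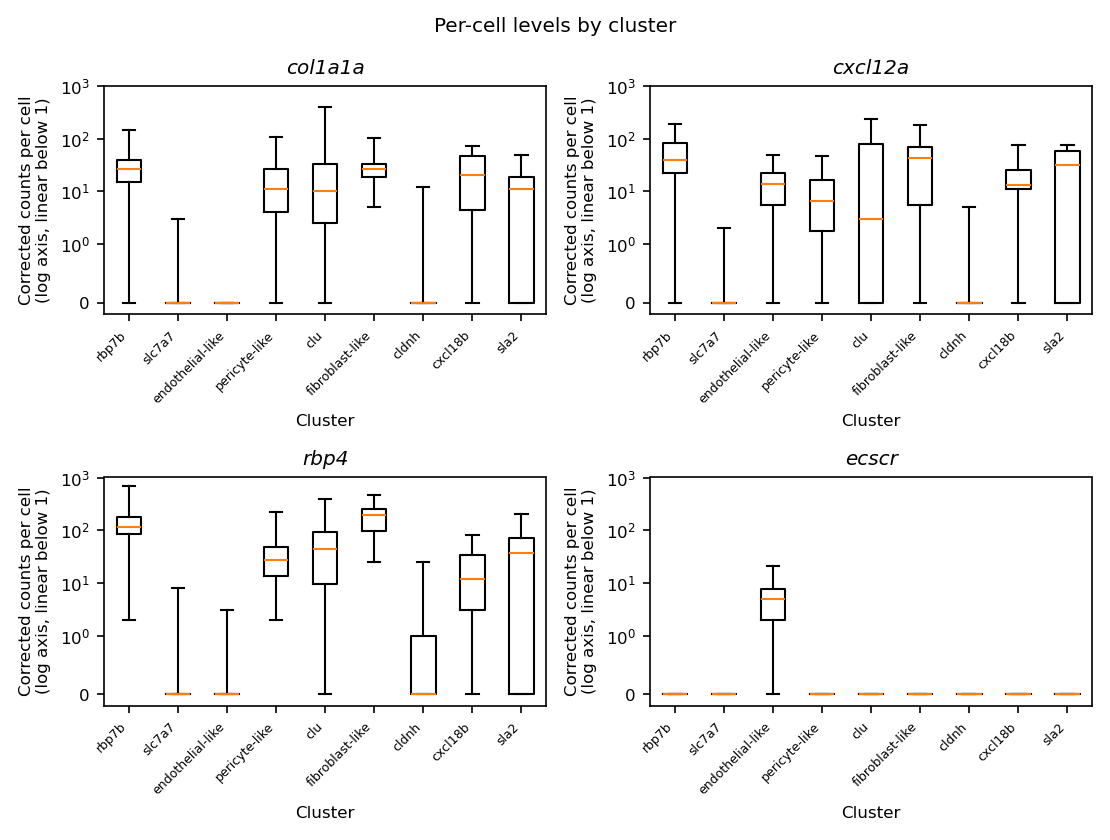
Corrected counts per cell of 4 genes (y axis, logarithmic above 1 and linear below) in the 9 clusters. Boxes are quartiles with the median and whiskers reach the lowest and highest cell. The col1a1a and rbp4 boxes rise in the stromal clusters and in the sla2 cluster (medians 11 and 37). Cxcl12a rises in these and also in the endothelial-like cluster (median 14, against 31 in the sla2 cluster). Ecscr rises in the endothelial-like cluster alone (median 5).

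The slc7a7 cluster held 48 cells (14.8%), which the limit of 5 counts of c1qb let through. All 16 macrophage markers past the minimum had a log2 ratio over 1 to melanoma and were in at least 25% of the cells, when 15% of all genes were over 1, while its 5 leading genes were the chemokine genes ccl39.3 and cxcl11.1, the chemokine receptor gene cxcr1, which is on the neutrophil list, slc7a7 and g0s2, the last in 1 cell. Its 10 leading genes held cxcr1 and 0 macrophage markers, and 8 macrophage markers were among the 50 leading genes, so it was not named. C1qb was above 0 in 38 of the 48 cells, at a median of 2 counts. Beside the c1qb-high cells, the complement genes c1qc (mean 3.75 against 18.0 counts) and c1qa (1.31 against 7.35) were lower in this cluster. These are not independent of the rule, which split the 2 groups on c1qb, a related complement gene. Cxcr1 was in 29.2% against 7.75% and the coagulation factor gene f3b in 52.1% against 28.4%. The median share of mitochondrial UMIs was 2.94% here and 1.13% over the 325 cells, and of the 10 cells above 10%, 6 lay here and 4 in the cldnh cluster. The part of this in these values was not tested.

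The cldnh cluster held 25 cells (7.69%), with krt5 above 0 in all 25 (2 to 19 counts, median 11) and epcam in 92.0%. Of the 18 keratinocyte markers past the minimum 13 had a log2 ratio over 1 to melanoma, when 18.8% of all genes did. The clu cluster also had 13. Here 11 of them were also in at least 25% of the cells, against at most 4 in any other cluster. Its 5 leading genes were si:dkey-7c18.24, si:dkey-247k7.2, the gel-forming mucin gene muc5.2, abcb5 and ccl20b, found in 3 to 6 cells each, and the claudin gene cldnh was in 10 of the 25 cells and 24.5% of the krt5-high cells. Its 50 leading genes held 8 keratinocyte and 5 mucous cell markers, and its 10 leading genes held 0 and 2. The mucous cell markers met the naming rule, but with markers of both lists the cluster was left unnamed, an exception to that rule. It was the shallowest cluster, with a median of 3010 raw UMIs, and its median share of mitochondrial UMIs was 4.69%.

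The sla2 cluster held 13 cells (2.15 to 6.74% of the 325). The pan-leukocyte genes ptprc, which encodes CD45, and laptm5 were above 0 in all 13, sla2 in 10, tnfrsf9b and ccl36.1 in 5 each, lck, zap70 and cd28 in 4 each, and none held more than 3 counts of ptprc. All 4 cells with lck lay here. Of the 7 pan-leukocyte genes past the minimum, 7 had a log2 ratio over 1 to melanoma, when 20.3% of all genes did. Its 5 leading genes were si:dkey-78l4.2, ccl33.3, sla2, ccl36.1 and si:ch211-214p16.1, of which the first pair was in 2 cells each. Collagen genes were in the same cells: 8 of the 13 held 6 to 50 counts of col1a1a, 7 to 46 of col1a2 and a median of 52.5 of cxcl12a, while the other 5 held 0 of each. The 8 cells had a median of 4 counts of laptm5 and the 5 cells a median of 5, and sla2 was above 0 in 6 of the 8 and 4 of the 5. Median raw UMIs were 6857.5 in the 8 cells and 3141 in the 5. The cluster was not named, since 1 T cell and 1 NK marker were among its 50 leading genes. Whether the 8 droplets held more than 1 cell was not tested.

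**Figure D4:**
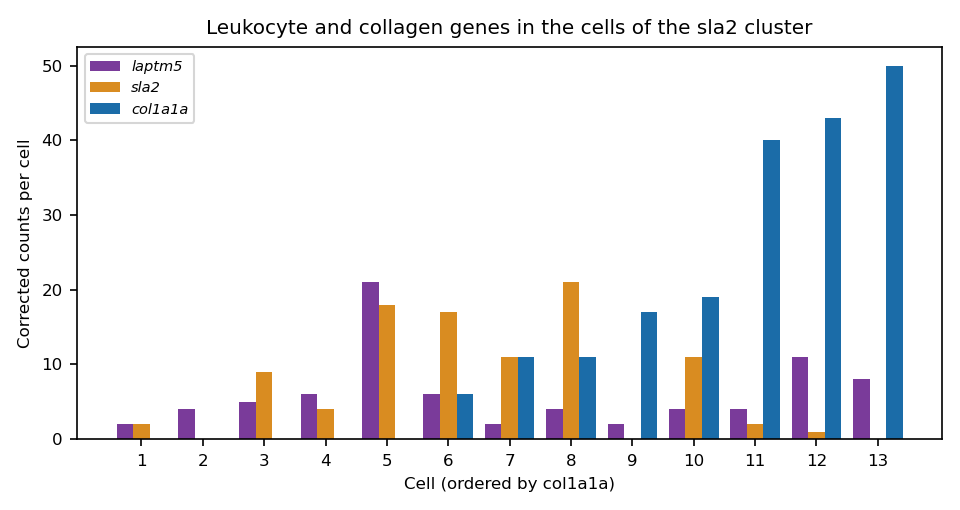
Corrected counts of laptm5, sla2 and col1a1a (y axis) in each of the 13 cells of the sla2 cluster, ordered by col1a1a. Cells 1 to 5 have no col1a1a, and cells 6 to 13 have 6 to 50 counts of it beside laptm5.

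Over all 325 cells, 192 (59.1%) held col1a1a and col1a2 at 3 or more counts, 38 (11.7%) ptprc with laptm5, 25 (7.69%) ecscr with egfl7 and 23 (7.08%) krt5 with epcam. Of these, 11 cells (3.38%) held more than 1 of the 4 pairs, 10 of them the collagen and the leukocyte pair, and 8 of those 10 were in the sla2 cluster. In the c1qb-high cells 9 of 387 (2.33%) held more than 1 pair. None of the 4 pairs was complete in 58 of the 325 cells.

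Against the melanoma states, 1086 of 12515 genes (8.68%) took a share of all corrected counts more than 2 times as high in the 325 cells as in each of the 5 states (log2 ratio over 1), and 2026 (16.2%) a share less than 0.5 times that in each. Serpinf1, a secreted serpin, was at a mean of 4.86 counts per cell against 0.00400 in melanoma, on 10 counts in all of melanoma, with 9.42 as the smallest log2 ratio over the 5 states, and was above 0 in 177 cells. The chemokine gene cxcl12a was at 28.6 against 0.0348, the collagen genes col1a2 at 29.9 against 0.0456 and col1a1a at 19.5 against 0.0272, and rbp4 at 70.5 against 0.136. For col1a1a the log2 ratios ran from 8.63 in the melanocytic state, where its mean was 0.0514, to 10.35. Si:ch1073-459j12.1 and CR855311.1, of unnamed function, were at 2.91 against 0.00320 and 20.9 against 0.0320, and the cytochrome P450 gene cyp1c1 was in 84 cells at a mean of 1.06 against 1 count in all of melanoma.

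Not every leading gene spoke for the whole group. Lyve1a was in 21 cells, all endothelial-like, and notum2, listed at 0 in every melanoma state, in 3 cells with 95.7% of its counts in 1. Of the leading 10, the other 8 were found in 84 to 225 of the 325 cells, but not evenly over the clusters. In the slc7a7, endothelial-like and cldnh clusters serpinf1 was at means of 0.0417, 0.114 and 0 counts, and col1a1a at 0.104, 0 and 0.48. Higher means there were cxcl12a at 15.8 in the endothelial-like, CR855311.1 at 6.44 in the slc7a7 and rbp4 at 3.32 in the cldnh cluster. At the other end, si:zfos-2070c2.1, tmem235b and nwd2 were at 0 in all 325 cells, against means of 0.486, 0.240 and 0.0979 in melanoma, and si:dkey-19a16.13 and CR556696.1 were in 1 cell each, against means of 0.333 and 0.267.

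**Figure D5:**
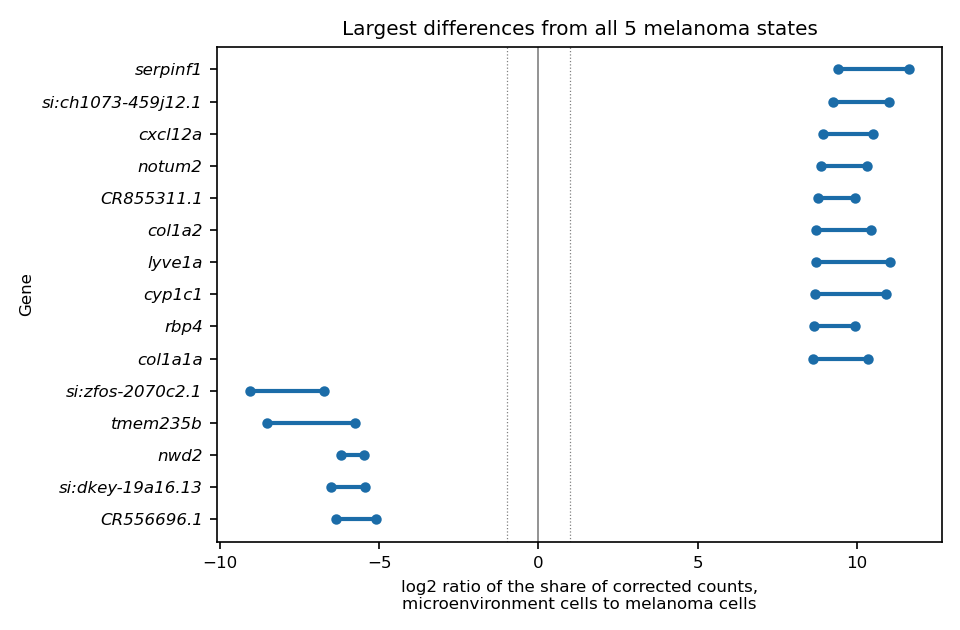
Log2 ratio of the share of corrected counts in the 325 cells to that in the melanoma states (x axis) for the 10 genes highest and the 5 lowest by rule, with the line from the smallest to the largest of the 5 states and dotted lines at -1 and 1. The serpinf1 line starts at 9.42 and the col1a1a line runs from 8.63 to 10.35. Ends that rest on a group at 0 counts depend on the 0.5 added to each sum.

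Gene lists were read against the 5 states pooled, where 1622 of the 12515 genes (13%) had a log2 ratio over 1 and the median over all genes was -0.70. Fibroblast genes had a median of 6.12, with 18 of 19 over 1, from cxcl12a at 9.78 to the matrix protein gene tgfbi at 0.58. Collagens and matrix organisers had 18 of 18 over 1 and a median of 4.11, the smallest being the basement membrane gene col4a2 at 1.60, at 5.98 counts against 2.12. The lists overlap and are not independent. This list shares col1a1a, col1a2 and other collagen genes with the fibroblast list, and cxcl12a is on both the fibroblast and the chemokine list. Matrix proteases and inhibitors had 7 of 7 and a median of 5.02. The membrane protease gene mmp14a was at 2.35 counts against 0.00959 (log2 ratio 8.01), ctsk, a collagen-degrading cathepsin, at 7.53, and mmp14b at 1.57.

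Chemokines and their receptors had 13 of 13 over 1, with a median of 6.69, from cxcl12a at 9.78 and cxcl8b.1 at 8.49 to ccl19a.1 at 1.91. The spread among clusters was wide: ccl19a.1 was above 0 in 72.5% of the rbp7b and 95.5% of the cxcl18b cluster and in 0 of 31 cells of the clu cluster. Cytokine and inflammation genes had 6 of 8 over 1, led by il1b at 6.57 and the cyclooxygenase gene ptgs2a at 5.94, and the other cyclooxygenase gene, ptgs2b, had the smallest ratio, -1.86. With a minimum of 200 corrected counts 2 of 4 were over 1. Endothelial genes had 11 of 12 over 1, with the water channel gene aqp1a.1 at -3.53, and the vascular growth list 7 of 10, with angpt2b at -1.79, but 0 of 2 with a minimum of 200 corrected counts. The lymphangiogenic growth factor gene vegfc was in 32 cells at a mean of 0.145 counts, against 3 counts in all of melanoma.

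The 16 macrophage and 18 keratinocyte markers past the minimum had 16 and 15 over 1, with medians of 5.02 and 5.36, in cells that passed the limits on c1qb and krt5. Other lists had medians nearer to 0. Antigen presentation had 6 of 13 over 1 and a median of 0.57, led by mhc2dab at 5.16 and ctss2.1 at 5.11, with psme1 at -0.38. The class II invariant chain gene cd74a was above 0 in 67.7% of the 325 cells. Its median was 70.5 counts in the slc7a7, 12 in the cldnh, 9 in the sla2 and 2 in the rbp7b cluster. Interferon response genes had 2 of 12 over 1, with irf7 at 1.69, rsad2 at 1.57 and stat1a at -0.29. Immediate early and dissociation stress genes had 8 of 19 over 1 and a median of 0.73, led by the heat shock genes hsp70.1 at 2.13 and hsp70l at 1.89, with atf3 at -0.36. Lipid droplet and fatty acid uptake genes had 3 of 9, with fabp11a at 7.94 and lpl at 5.08, and dgat1a, an enzyme of triglyceride synthesis, was at 0 in all 325 cells against a mean of 0.0647 in melanoma. With a minimum of 200 counts 1 of 4 was over 1.

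Cell division genes were low. Of 20 S and G2/M phase genes 0 had a log2 ratio over 1 and 20 had one under -1, with a median of -3.14, when 38.7% of all genes were under -1. The chromatin protein gene hmgb2a had the largest ratio, -1.35, the ribonucleotide reductase gene rrm1 was at -2.14, and the mitotic kinesin gene kif11 was at 0 in all 325 cells against a mean of 0.198. Each of the 9 clusters had 0 of the 20 genes over 1. Summed over the 20 genes, a median of 2 corrected counts per cell was found, against 3 in the stressed, melanocytic and invasive states, 6 in the inflammatory and 48 in the proliferative state.

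Beside the other TME cells, 1455 of 6308 genes (23.1%) had a log2 ratio over 1 to the krt5-high cells and 20.2% one under -1. Against the c1qb-high cells 1301 of 6719 (19.4%) were over 1 and 19.8% under -1. Chosen after their values were seen, the alcohol dehydrogenase gene adh8a was at a mean of 4.41 counts and in 116 cells, against 0 in 253 krt5-high cells and 0.127 in the c1qb-high cells, and the transmembrane gene ifitm1 was at 15.6 in 177 cells against 0.0119 and 0.214. The matrix gene postna was in 121 cells at 1.98 counts against 0.00775 in the c1qb-high cells. The prostaglandin synthase gene ptgdsb.1 was lower, at 0.772 against 85.1 in the krt5-high cells.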

How the data were processed

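Single cells of 1 pooled library (Chromium 3' chemistry) were analysed. Per the labels, reads were aligned with Cell Ranger 6.0.2, and the submitters' processing notes name R 4.0.5, Seurat 4.0.2 and the build GRCz11. The authors corrected the UMI counts to a common depth with SCTransform, and the deposited values are these corrected counts, a score and not a count of molecules, for 20141 genes in 3968 cells. The deposited raw UMI counts per cell, the percent of mitochondrial UMIs and the cell annotation were used as they stand. Bulk values of sorted melanoma cells were not used here.

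The members, gene lists and marker lists were chosen with earlier results of these data known. A cell had a gene when its corrected count was above 0. Genes were compared by the log2 ratio of their shares of all corrected counts, from sums plus 0.5, over genes with at least 50 corrected counts in the 325 cells and the melanoma cells together. Named genes were col1a1a, the 10 highest and 5 lowest against all 5 states (at least 200 counts), 5 per cluster (at least 50 counts in it), 3 per marker list, and the 2 largest and 1 smallest per gene list described; others are said to be chosen after their values were seen, or stand for a lineage. Clusters came from scanpy 1.11.5 (scaled to 10000 counts, log, 2000 variable genes, 20 components, 15 neighbours, Leiden resolution 0.8). Lists held 494 genes, 403 of them measured; mpx and lyz were not analysed here. No doublet caller was run. The sort before encapsulation discards joined cells, not cells that share a droplet. The ratio was also run on simulated sums, drawn without spread between cells or depth correction, so that run does not bear on either. Alternatives changed the depth minimum, marker cut, pseudocount, weights, rule limits and clustering. Computations used Python 3.11.15, numpy 2.4.6, pandas 2.3.3 and scipy 1.17.1.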

Additional observations from a re-analysis of the deposited data

How the results depend on the processing

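The alternatives bore mostly on shares and counts. For the 15 genes named against the melanoma states, 8 alternatives gave 120 ratios nearest to 0. All 120 kept their direction and stayed past a log2 ratio of 1 or -1. These genes were chosen as the most extreme, so that limit was far from their values, and sizes did move. Notum2 went from 8.88 to 5.26 with at least 5000 raw UMIs, and nwd2 from -5.49 to -2.32 with 5 added to each sum. The count of 1086 genes over each state was 452 with a minimum of 200 corrected counts and 3057 with no minimum, where fewer or more genes enter. With at least 5000 raw UMIs ecscr was in 13.8% of cells. At 3 or more corrected counts, lck and nkl.2 were in 0.308% of cells each, and npsn and hbaa1 in 0. The share with col1a1a was 75.5% with limits of 5 for krt5 and 2 for c1qb, and 80.2% without the cldnh and slc7a7 clusters, a choice made after seeing the data. With a minimum of 200 counts fewer genes entered the lists, and 4 of 4 pan-leukocyte genes were over 1, against 7 of 7. The cytokine list had 2 of 4, vascular growth 0 of 2, heme and globin 0 of 4 and lipid 1 of 4. There were 6 clusters of at least 10 cells at resolution 0.4, 11 at 1.2, 10 with 10 components and 9 with another seed, with 35 cells in the endothelial cluster under each. Agreement of all clusters with those reported (adjusted Rand index, 1 for identical) was 0.671, 0.775, 0.604 and 0.857 in that order. Of the 45 leading genes of the clusters, 19 also led among genes in at least 25% of cells. The corrected counts limit what shares of rare genes in shallow cells can show. No paired analysis was possible because the replicate numbers belong to bulk libraries that were not used.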
